A study of Mus musculus with 36 samples.

Results

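Slc7a11, Slc3a2, Gclc, Gclm, Gpx1, Gpx4, Hmox1, Sod1, Txnrd1 and Cyba encode enzymes, transporters and subunits that handle cystine, glutathione and reactive oxygen. These 10 genes were listed by name out of 54203 genes with an annotated transcript, and their estimated reads were summed per gene in 36 libraries of mouse bone marrow plasma cells. All 10 passed the filter on low counts in each fit. The genes were chosen by name with measured expression values of these libraries in view, over the 8 groups and with no single comparison given as the source. Every difference between groups in the 10 genes is therefore a description, and a gene is called when its adjusted p in an edgeR fit of all genes was under 0.05.

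The libraries came from C57/BL6 mice, from plasma cells positive for a reporter, CD138 and TACI, with 2000 sorted cells per library. In cohort D they formed 4 groups, named Ccnd1-Ikk2ca (6 libraries), Ikk2ca(D) (4), Ccnd1 (4) and Control(D) (4). In cohort M the groups were MMSET-Ikk2ca (6 libraries), Ikk2ca(M) (4), MMSET (4) and Control(M) (4). Ccnd1 encodes cyclin D1, MMSET is the histone methyltransferase encoded by Nsd2, and Ikk2 is a kinase of the NF-kappaB pathway encoded by Ikbkb. The promoter or Cre line of each transgene, the age of the mice and the alleles carried by the controls are not given in the sources used here. The labels do not say whether each library of a group is a mouse of its own; the spread behind each p-value is that of the libraries and may be technical.

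The libraries held 54.1 to 97.6 M estimated reads, of which 43.9% to 73.0% fell on immunoglobulin genes. The targeted genes followed the labels: mean Ccnd1 was 701 CPM in Ccnd1-Ikk2ca and 303 CPM in Ccnd1, against 0.845 CPM in Control(D), and mean Nsd2 was 339 CPM in MMSET-Ikk2ca and 627 CPM in MMSET, against 3.33 CPM in Control(M). Ikbkb differed far less. Its mean was 53.0 CPM in Ccnd1-Ikk2ca and 57.1 CPM in Ikk2ca(D), against 27.4 CPM in Control(D). In cohort M it was 54.1 CPM in MMSET-Ikk2ca and 56.6 CPM in Ikk2ca(M), against 26.6 CPM in Control(M). CPM, the usual depth-scaled read abundance, is on 1 scale for all 36 libraries. All 12 plasma cell markers examined exceeded 1 CPM in some library of every group. Their summed level had medians of 12479 CPM in Ccnd1-Ikk2ca, 34059 CPM in Ikk2ca(D) and 93401 CPM in Ccnd1, against 79347 CPM in Control(D), and of 6170 CPM in MMSET-Ikk2ca, 12041 CPM in Ikk2ca(M) and 13954 CPM in MMSET, against 36940 CPM in Control(M). Most of that sum was Jchain, at a mean of 9415 CPM in Ccnd1-Ikk2ca against 73742 CPM in Control(D), while Sdc1 (CD138) was at 459 CPM against 373 CPM and Xbp1 at 2209 CPM against 2259.6 CPM. Of the 12 markers, 4 were called lower and 0 higher in Ccnd1-Ikk2ca against Control(D), where 11.1% of all genes were called. In MMSET-Ikk2ca against Control(M), 5 were called lower and 1 higher, where 6.91% of all genes were called. The median log2 fold change of the 12 markers was -0.49 and -0.6 in these comparisons. The part of these levels in the results was not tested. In bulk samples, fewer cells of a type and less RNA per cell cannot be told apart. MMSET replicate 1 stood apart with 868 CPM of summed monocyte and macrophage markers, where the other 3 MMSET libraries held 71.7 to 116 CPM, and it also had the highest neutrophil sum of its group, 2868 CPM.

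Cells take up cystine through a heterodimer of the light chain Slc7a11 (xCT) and the heavy chain Slc3a2 (CD98), in exchange for glutamate, and reduce it to cysteine. Cysteine limits the synthesis of glutathione, whose first step is made by glutamate-cysteine ligase, a catalytic subunit Gclc with a modifier subunit Gclm. Glutathione peroxidases spend glutathione on peroxides, and Gpx4 acts on lipid peroxides in membranes, where it holds back ferroptosis, a form of death by lipid oxidation. Plasma cells fold large amounts of antibody with disulfide bonds, a process that consumes oxidising equivalents and yields hydrogen peroxide.

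The genes lie on GRCm38 at 3:49892526-50443614 (Slc7a11, minus strand), 19:8706882-8723369 (Slc3a2, minus), 9:77754535-77794485 (Gclc, plus), 3:122245557-122270732 (Gclm, plus) and 9:108338903-108340343 (Gpx1, plus). The others lie at 10:80047166-80056439 (Gpx4, plus), 8:75093621-75100589 (Hmox1, plus), 16:90220754-90226329 (Sod1, plus), 10:82833951-82897712 (Txnrd1, plus) and 8:122424776-122432930 (Cyba, minus). Promoter windows of 300 bases, from 250 bases before to 50 bases after a RefSeq start site on GRCm38.p6, were matched for 8 of the 10 genes, 13 windows in all; Gclc and Hmox1 had none. Shown are the windows of the 4 genes with a window that were called against both controls or in both groups with MMSET, at chr3:50443564-50443863 (Slc7a11, minus strand), chr10:80053315-80053614 (Gpx4, plus, 1 of its 4 windows), chr8:122432891-122433190 (Cyba, minus) and chr16:90220512-90220811 (Sod1, plus), with matches to the searched motifs in capitals.
Slc7a11: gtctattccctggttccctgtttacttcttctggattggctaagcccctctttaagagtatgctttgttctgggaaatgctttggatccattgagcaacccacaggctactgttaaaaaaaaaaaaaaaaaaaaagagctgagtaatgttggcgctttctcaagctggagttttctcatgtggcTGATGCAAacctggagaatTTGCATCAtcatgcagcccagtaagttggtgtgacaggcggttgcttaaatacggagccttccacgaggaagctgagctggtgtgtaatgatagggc
Gpx4: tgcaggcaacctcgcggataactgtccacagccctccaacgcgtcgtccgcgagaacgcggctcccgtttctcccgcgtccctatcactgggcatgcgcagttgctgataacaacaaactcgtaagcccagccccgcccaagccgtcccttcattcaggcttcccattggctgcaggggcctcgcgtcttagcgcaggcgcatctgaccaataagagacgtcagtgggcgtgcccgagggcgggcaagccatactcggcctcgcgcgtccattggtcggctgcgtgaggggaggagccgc
Cyba: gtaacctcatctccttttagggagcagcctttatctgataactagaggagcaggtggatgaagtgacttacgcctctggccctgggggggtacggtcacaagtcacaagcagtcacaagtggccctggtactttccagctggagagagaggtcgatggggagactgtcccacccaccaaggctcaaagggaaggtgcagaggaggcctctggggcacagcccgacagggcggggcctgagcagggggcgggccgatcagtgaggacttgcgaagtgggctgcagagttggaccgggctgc
Sod1: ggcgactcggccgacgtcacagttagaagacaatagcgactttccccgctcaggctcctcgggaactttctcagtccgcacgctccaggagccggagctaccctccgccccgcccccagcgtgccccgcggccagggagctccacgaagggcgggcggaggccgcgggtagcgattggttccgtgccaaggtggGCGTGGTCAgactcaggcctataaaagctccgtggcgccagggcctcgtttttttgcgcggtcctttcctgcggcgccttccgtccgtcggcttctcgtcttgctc

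Both strands of every window were searched for 3 motifs. The core of the C/EBP-ATF response element, TGATGCAA, occurred at 2 places in the Slc7a11 window, at positions 185 to 192 as written and at 204 to 211 on the other strand, counted from 1 at the 5′ end; 0.895% of 32851 mouse windows held it. The core of the antioxidant response element, TGACNNNGC, the site read by NRF2, matched at 195 to 203 of the Sod1 window, at 117 to 125 in Gclm and at 159 to 167 in 1 window of Txnrd1, against 12.4% of all windows. The kappa-B consensus matched at 196 to 205 of the Gpx1 window, against 8.46% of all windows, and the letters of none of the 3 motifs were found in the windows of Gpx4, Cyba and Slc3a2. A match describes letters in a window and says nothing of binding.

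Per length, the genes stood far apart. In Control(D), mean TPM was 256 for Slc3a2, 102 for Sod1, 95.4 for Cyba, 49.5 for Gpx4 and 29.1 for Gpx1. It was 5.58 for Hmox1, 4.98 for Gclm, 2.64 for Txnrd1, 0.406 for Gclc and 0.0107 for Slc7a11. The heavy chain of the cystine transporter was thus the most abundant of the 10 transcripts in control plasma cells, and its light chain the least. In MMSET-Ikk2ca, mean TPM was 513 ± 172 for Cyba (SD, n = 6), 494 ± 95.7 for Slc3a2 and 117 ± 41.6 for Gpx4. It was 2.73 ± 1.53 for Slc7a11, 2.58 ± 0.974 for Hmox1, 2.2 ± 0.638 for Txnrd1 and 0.185 ± 0.138 for Gclc. The order of Cyba and Slc3a2, and of Slc7a11, Hmox1 and Txnrd1, lay within the spread of the libraries. In Ccnd1-Ikk2ca, Slc7a11 reached 0.349 TPM and in MMSET 0.521 TPM.

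In the comparisons with a control, the groups with Ikk2ca had 2 to 4 of the 10 genes called. In Ccnd1-Ikk2ca against Control(D), 4 genes were called (Slc7a11, Gpx4 and Cyba higher, Hmox1 lower), where 11.1% of 15323 genes were. In Ikk2ca(D) 2 were called (Gpx4 and Cyba, both higher), where 0.437% of genes were, and in Ccnd1 0 were, where 0.00653% of genes were. The 0 for Ccnd1 held by edgeR, limma voom and DESeq2, with 0 genes at an unadjusted p under 0.05. In MMSET-Ikk2ca against Control(M), 4 genes were called (Slc7a11, Gpx4 and Cyba higher, Sod1 lower), where 6.91% of 15416 genes were. In Ikk2ca(M) 3 were called (Slc7a11, Gpx4 and Cyba, all higher), and in MMSET 3 were called (Slc7a11 higher, Hmox1 and Sod1 lower), where 0.649% of genes were called in each. The median log2 fold change of the 10 genes was 0.07 in Ccnd1-Ikk2ca and 0.03 in MMSET-Ikk2ca, beside 0.02 and 0.01 over all genes, close to each other. Since the list was chosen with these data in view, nothing is read from the counts.

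**Figure D1:**
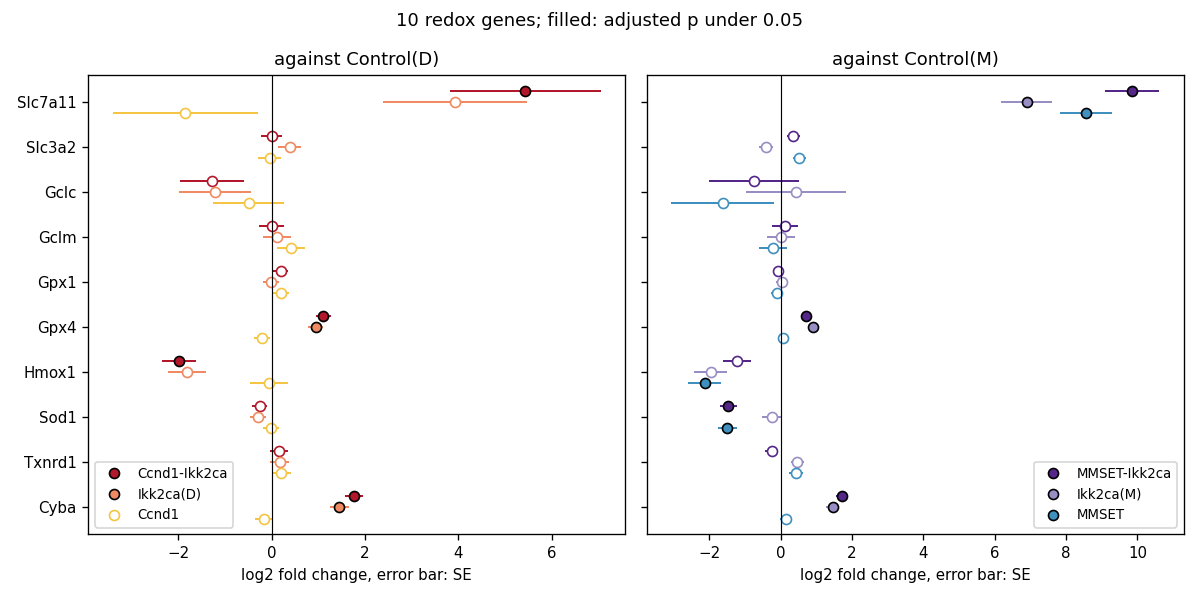
Log2 fold change (x axis, error bars SE from the edgeR test) of the 10 genes for each transgenic group against its own control, cohort D on the left and cohort M on the right; filled points have an adjusted p under 0.05. Gpx4 and Cyba lie to the right of 0 in all 4 groups with Ikk2ca, Slc7a11 reaches 9.86 in MMSET-Ikk2ca, and Sod1 lies at -1.46 in MMSET-Ikk2ca and -1.49 in MMSET.

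Slc7a11, the cystine-carrying light chain, was close to absent in both controls and was called higher in MMSET-Ikk2ca, Ikk2ca(M), MMSET and Ccnd1-Ikk2ca. In cohort M it had 10.8, 23.0 and 39.5 CPM as the lowest, median and highest of the MMSET-Ikk2ca libraries. It had 3.15, 1.08, 1.82 and 6.35 CPM in Ikk2ca(M), 9.44, 7.61, 17.2 and 4.66 CPM in MMSET, and 0.0155, 0.0161, 0.0486 and 0.0159 CPM in Control(M). All 14 transgenic libraries lay above all 4 control libraries, which held 1, 1, 3 and 1 reads. Over the group, 10932 reads in MMSET-Ikk2ca, 893 in Ikk2ca(M) and 2219 in MMSET stood against 6 in Control(M). Scaled to depth this is a ratio of 1011 for MMSET-Ikk2ca (95% exact interval 464 to 2755), 136 for Ikk2ca(M) (62.2 to 371) and 421 for MMSET (193 to 1147), intervals that cover counting error only.

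The fitted log2 fold changes of Slc7a11 were 9.86 ± 0.758 (SE) in MMSET-Ikk2ca (edgeR adjusted p = 5.71e-07), 6.90 ± 0.717 in Ikk2ca(M) (adjusted p = 0.000151) and 8.56 ± 0.742 in MMSET (adjusted p = 4.08e-06). With so few control reads their size depends on the prior count of the fit. With limma voom the calls in Ikk2ca(M) (adjusted p = 0.118) and MMSET (adjusted p = 0.0529) were lost. Without MMSET replicate 1, the library with the high myeloid sums, the log2 fold change in MMSET was 8.57 (adjusted p = 8.18e-06).

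Among the transgenic groups of cohort M, MMSET-Ikk2ca lay above Ikk2ca(M) in every library. The log2 difference was 2.95 ± 0.499 (edgeR adjusted p = 0.00517), and, among the alternatives without a replicate block, it lost its call in the fit of all 36 libraries (adjusted p = 0.115). The ranges of MMSET-Ikk2ca and MMSET overlapped (log2 difference 1.3 ± 0.459, adjusted p = 0.187), as did those of MMSET and Ikk2ca(M). On the log2 scale the combined effect was smaller than the sum of the single effects, with an interaction of -5.60 ± 0.822 (adjusted p = 0.00777). Its size rests on the 6 reads of Control(M) and depends on the prior count of the fit. In that interaction 1 of the 10 genes was called, where 0.0973% of 15416 genes were, and among the alternatives without a replicate block, limma voom (adjusted p = 0.38) and the fit of 36 libraries (adjusted p = 0.107) did not call it. On the linear scale, the mean was 24 ± 10.1 CPM in MMSET-Ikk2ca (SD, n = 6), 3.10 ± 2.33 CPM in Ikk2ca(M), 9.72 ± 5.33 CPM in MMSET and 0.0240 ± 0.0164 CPM in Control(M) (SD, n = 4 each).

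In cohort D every Ccnd1-Ikk2ca library had less Slc7a11 than every MMSET-Ikk2ca library of cohort M, a difference that edgeR did not call. The Slc7a11 ranges of Ikk2ca(D) and Ikk2ca(M) overlapped, as did those of the controls. Cohort and transgene cannot be told apart between the combined groups. The lowest, median and highest Ccnd1-Ikk2ca libraries had 0.481, 3.56 and 8.02 CPM. Ikk2ca(D) had 0.0198, 3.22, 0.717 and 1.22 CPM, Ccnd1 had 0.0374, 0, 0.0351 and 0.0150 CPM, and Control(D) had 0, 0, 0.338 and 0 CPM. All 6 Ccnd1-Ikk2ca libraries and 3 of 4 Ikk2ca(D) libraries lay above every control library, and the Ccnd1 and control ranges overlapped. The only control library of cohort D with reads, Control(D) replicate 3, held 20 reads, all assigned to Slc7a11-204, a transcript with a retained intron; a count of 0 allows up to 3 reads.

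Over the group, 1694 reads in Ccnd1-Ikk2ca, 414 in Ikk2ca(D) and 5 in Ccnd1 stood against 20 in Control(D). The depth-scaled ratio to Control(D) was 49.0 for Ccnd1-Ikk2ca (95% exact interval 31.6 to 80.5) and 18.9 for Ikk2ca(D) (12.1 to 31.3). The fitted log2 fold change was 5.44 ± 1.61 in Ccnd1-Ikk2ca (edgeR adjusted p = 0.0345) and 3.93 ± 1.54 in Ikk2ca(D) (adjusted p = 0.264), and in Ccnd1 -1.85 ± 1.56 (adjusted p = 1). The call in Ccnd1-Ikk2ca was lost without Control(D) replicate 1, 2 or 4 or Ccnd1-Ikk2ca replicate 2, 4 or 5, with adjusted p between 0.00542 and 0.0844 over all leave-outs. Without Control(D) replicate 3 the log2 fold change was 10.98 (adjusted p = 0.00542).

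**Figure D2:**
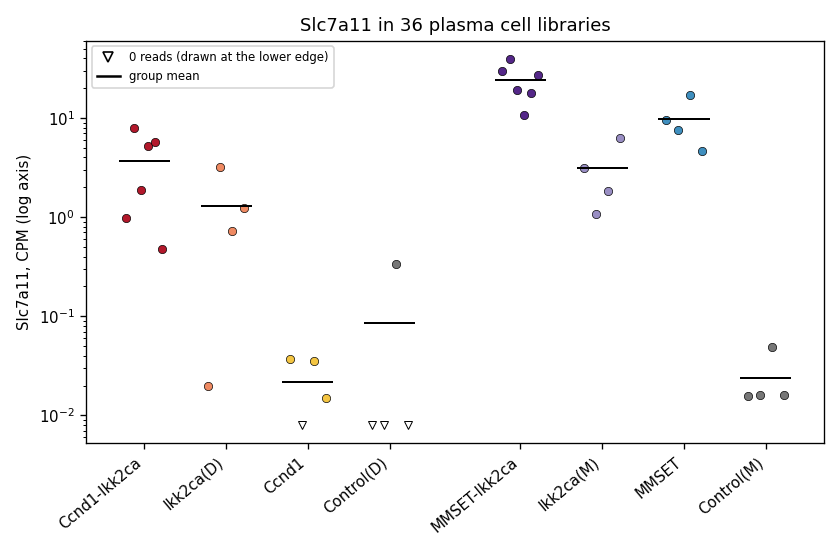
Slc7a11 in each of the 36 libraries (CPM, log axis), 1 point per library, with horizontal lines at group means and open triangles for libraries with 0 reads. The 6 MMSET-Ikk2ca libraries lie between 10.8 and 39.5 CPM, the 6 Ccnd1-Ikk2ca libraries between 0.481 and 8.02 CPM, and 7 of the 8 control libraries below 0.05 CPM.

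Reads of Slc7a11 in MMSET-Ikk2ca fell mainly on coding transcripts, with a mean share of 53.2% on Slc7a11-201 and 30.2% on Slc7a11-205, and 8.0% and 8.64% on the retained-intron transcripts Slc7a11-202 and Slc7a11-204. In MMSET the shares on the 2 coding transcripts were 69.5% and 19.7%. Of 5 annotated genes that overlap Slc7a11, Gm37498 had the most reads, 24 in its highest library. The MMSET-Ikk2ca and Ccnd1-Ikk2ca ranges did not overlap, with a log2 difference of Ccnd1-Ikk2ca minus MMSET-Ikk2ca of -2.69 ± 0.773 (edgeR adjusted p = 0.0563).

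Slc3a2, the heavy chain that brings several amino acid transporters to the membrane, was called against neither control. It had 1214, 1770 and 1978 CPM as lowest, median and highest in MMSET-Ikk2ca, 1287, 957, 638 and 1195 CPM in Ikk2ca(M), 2046, 1962, 1444 and 2299 CPM in MMSET, and 1262, 1508, 1135 and 1449 CPM in Control(M). In cohort D it had 716, 957 and 1750 CPM in Ccnd1-Ikk2ca, 2113, 1095, 1425 and 971 CPM in Ikk2ca(D), 835, 979, 970 and 1326 CPM in Ccnd1, and 1056, 1056, 1089 and 1060 CPM in Control(D). Every transgenic group overlapped its control. Against the control, the log2 differences ran from -0.40 in Ikk2ca(M) to 0.53 in MMSET, none called. MMSET-Ikk2ca lay above Ikk2ca(M) by 0.76 ± 0.180 (edgeR adjusted p = 0.0482) with overlapping ranges, a call kept in 4 of 18 leave-outs.

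Gclc and Gclm, the subunits of glutamate-cysteine ligase, were called in no comparison. Gclc was low and uneven, at 0.898, 1.40 and 2.37 CPM (lowest, median, highest) in Ccnd1-Ikk2ca, 0.435, 2.376, 2.29 and 1.36 CPM in Ikk2ca(D), 0.337, 0.472, 5.44 and 4.50 CPM in Ccnd1, and 2.379, 2.94, 5.46 and 4.37 CPM in Control(D). All libraries of Ccnd1-Ikk2ca and Ikk2ca(D) lay below all of Control(D), by a margin at the third decimal for Ikk2ca(D), and the log2 difference was -1.27 ± 0.687 (edgeR adjusted p = 0.264) and -1.22 ± 0.774 (adjusted p = 0.569). In cohort M, Gclc ran from 0 to 2.25 CPM in MMSET-Ikk2ca, 0.157 to 6.30 CPM in Ikk2ca(M), 0 to 1.69 CPM in MMSET and 0.827 to 3.57 CPM in Control(M), so all ranges overlapped. Gclm means lay between 10.9 CPM in MMSET and 15.7 CPM in Ccnd1, with 11.9 CPM in Control(D) and 12.7 CPM in Control(M), and every range overlapped its control. Part of the Gclm reads may belong to Gm17494 on the opposite strand and Gm6061 on the same one. Whether reads were assigned by strand was not examined.

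Gpx4, the lipid peroxide reductase, was higher in all 4 groups with Ikk2ca. In cohort D it had 159, 191 and 262 CPM (lowest, median, highest) in Ccnd1-Ikk2ca, 166, 198, 159 and 180.0 CPM in Ikk2ca(D), 72.7, 65.4, 81.4 and 96.1 CPM in Ccnd1, and 95.8, 72.0, 93.7 and 105 CPM in Control(D). In cohort M it had 155, 176 and 194 CPM in MMSET-Ikk2ca, 218, 213, 212 and 182 CPM in Ikk2ca(M), 104, 103, 125 and 130.2 CPM in MMSET, and 124, 92.3, 102 and 117 CPM in Control(M). Every library with Ikk2ca lay above every control library of its cohort, and the groups with only Ccnd1 or MMSET overlapped their controls.

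The log2 fold change of Gpx4 was 1.11 ± 0.155 in Ccnd1-Ikk2ca (edgeR adjusted p = 0.000214), 0.94 ± 0.165 in Ikk2ca(D) (adjusted p = 0.014), 0.70 ± 0.120 in MMSET-Ikk2ca (adjusted p = 0.00148) and 0.92 ± 0.130 in Ikk2ca(M) (adjusted p = 0.00141). In Ccnd1 it was -0.21 ± 0.164 and in MMSET 0.08 ± 0.129, neither called. The rise in Ikk2ca(D) lost its call without Control(D) replicate 2 or Ikk2ca(D) replicate 2, and with Xist as a covariate (adjusted p = 0.148). Xist exceeded 10 CPM in 4 of 4 libraries of Ikk2ca(D) and in 1 of 4 of Control(D), and its part in the result was not tested beyond this covariate. In Ccnd1-Ikk2ca it did in 3 of 6, and the rise there held under every alternative and leave-out. The main transcript Gpx4-202 took 76.8% to 80.2% of Gpx4 reads in the mean of each group, and Gpx4-ps2, a processed copy, had at most 86.2 reads in a library.

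Cyba, the p22phox subunit that stabilises the NADPH oxidases, a source of superoxide rather than a defence, showed the same pattern with larger differences. In cohort D it had 330.1, 441 and 595 CPM (lowest, median, highest) in Ccnd1-Ikk2ca, 367, 419, 305 and 392 CPM in Ikk2ca(D), 122, 102, 115 and 143 CPM in Ccnd1, and 118, 99.1, 143 and 183 CPM in Control(D). In cohort M it had 502, 588 and 685 CPM in MMSET-Ikk2ca, 429, 583, 462 and 519.6 CPM in Ikk2ca(M), 213, 163, 208 and 213 CPM in MMSET, and 182, 122, 177 and 237 CPM in Control(M). The lowest library with Ikk2ca, at 305 CPM, lay above the highest library without it, at 237 CPM, over both cohorts.

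The log2 fold change of Cyba was 1.76 ± 0.191 in Ccnd1-Ikk2ca (edgeR adjusted p = 2.68e-05), 1.45 ± 0.200 in Ikk2ca(D) (adjusted p = 0.00248), 1.73 ± 0.167 in MMSET-Ikk2ca (adjusted p = 6.47e-06) and 1.46 ± 0.175 in Ikk2ca(M) (adjusted p = 0.000278). Apart from Ikk2ca(D) with Xist as a covariate (adjusted p = 0.0672), these calls held under all alternatives and leave-outs. Cyba-201 took 97.4% to 98.8% of the reads. Gm20388, annotated over Cyba on the opposite strand, had 198 to 1962 reads per library, and reads of the 2 cannot be told apart without strand. Neutrophils also express Cyba, and summed neutrophil markers were lower in the groups with both transgenes: 1.29 to 231 CPM in Ccnd1-Ikk2ca against 58.1 to 567 CPM in Control(D), and 0.788 to 16.3 CPM in MMSET-Ikk2ca against 40.9 to 211 CPM in Control(M). In Ikk2ca(D) they were 53.2 to 545 CPM and in Ikk2ca(M) 5.88 to 475 CPM, overlapping the controls. In Ccnd1 they were 409 to 1697 CPM and in MMSET 51.2 to 2868 CPM, also overlapping the controls. Their part in the Cyba result was not tested.

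Gpx1, the abundant cytosolic glutathione peroxidase, was called nowhere. Its group means lay between 58.9 ± 12.9 CPM in MMSET and 69.5 ± 9.62 CPM in Ccnd1 (SD, n = 4 each), with 60.8 ± 9.64 CPM in Control(D) and 62.6 ± 6.03 CPM in Control(M). Over the 6 comparisons with a control, its log2 difference ran from -0.09 to 0.20. Its ranges overlapped in every comparison.

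Sod1, the cytosolic superoxide dismutase, was lower in both groups with MMSET. It had 19.2, 32.2 and 41.5 CPM (lowest, median, highest) in MMSET-Ikk2ca, 90.5, 58.8, 67.1 and 77.1 CPM in Ikk2ca(M), 44.8, 27.7, 23.3 and 26.5 CPM in MMSET, and 54.0, 122, 69.5 and 98.0 CPM in Control(M). All 10 libraries with MMSET lay below all 8 of Ikk2ca(M) and Control(M). Sod1 fell by 1.46 on the log2 scale in MMSET-Ikk2ca (SE 0.243, edgeR adjusted p = 0.00113), a call kept under all alternatives and leave-outs, and by 1.49 in MMSET (SE 0.275, adjusted p = 0.0133). The call in MMSET was lost with limma voom (adjusted p = 0.0558) and without MMSET replicate 2 or 3. Without MMSET replicate 1 the log2 fold change there was -1.75 (adjusted p = 0.00425). Scaf4, a coding gene that overlaps Sod1 on the opposite strand, had 90 to 1075 reads per library. Its part in the Sod1 reads was not tested.

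In cohort D, Sod1 had 64.8, 97.1 and 131 CPM in Ccnd1-Ikk2ca, 91.5, 104, 89.3 and 97.8 CPM in Ikk2ca(D), 127, 92.0, 123 and 123 CPM in Ccnd1, and 112, 113, 130.0 and 115 CPM in Control(D). The 4 Ikk2ca(D) libraries lay below all controls, without a call (log2 difference -0.30 ± 0.169, edgeR adjusted p = 0.497), and the other groups overlapped the control. Ccnd1-Ikk2ca and MMSET-Ikk2ca, compared in the fit of all libraries, had ranges that did not overlap, with a log2 difference of 1.64 ± 0.192 (adjusted p = 1.19e-06). In that comparison 3 of the 10 genes were called, where 2.49% of 17116 genes were. The others were Txnrd1 at 0.64 ± 0.164 (adjusted p = 0.0256) and Slc3a2 at -0.70 ± 0.187 (adjusted p = 0.0342). The ranges of both overlapped, and leaving out 1 library kept the call of Txnrd1 in 7 of 12 cases and that of Slc3a2 in 3 of 12; Txnrd1 also lost its call without the low-count filter. Cohort and transgene cannot be told apart there. Taken against each group's own control, the difference between the 2 effects was 1.19 ± 0.297 for Sod1 (adjusted p = 0.0906). By edgeR 0 of the 10 genes were called in that test, where 0.175% of genes were, with 3 at an unadjusted p under 0.05, 0 by limma voom and 2 by DESeq2.

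Between Control(D) and Control(M), edgeR called 0 of the 10 genes, where 0.0409% of 17116 genes were, with 1 at an unadjusted p under 0.05 and 0 by limma voom and by DESeq2. The Slc3a2 ranges of the controls did not overlap (log2 difference -0.33 ± 0.228, adjusted p = 0.713), and those of the other 9 genes did. The share of all genes with such ranges is not given here, so nothing is read from this.

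Txnrd1, the cytosolic thioredoxin reductase, was called against neither control. In cohort M it had 11.6, 13.5 and 18.5 CPM (lowest, median, highest) in MMSET-Ikk2ca, 25.5, 20.2, 26.1 and 21.0 CPM in Ikk2ca(M), 19.8, 23.7, 21.7 and 25.5 CPM in MMSET, and 17.0, 20.5, 17.3 and 11.8 CPM in Control(M). MMSET-Ikk2ca lay below both single-transgene groups without overlap, and its range overlapped that of the control. It fell by 0.69 on the log2 scale against MMSET (SE 0.172, edgeR adjusted p = 0.0479) and by 0.72 against Ikk2ca(M) (SE 0.172, adjusted p = 0.0498), and each call was kept in 2 of 18 leave-outs. In cohort D the group means lay between 19.8 CPM in Control(D) and 22.7 CPM in Ccnd1, with every range overlapping. Txnrd1-206, a coding transcript, had a mean share of 6.71% (SD 6.33) in Ccnd1-Ikk2ca, 5.16% (SD 7.04) in Ikk2ca(D) and 9.79% (SD 8.08) in Ccnd1, against 0% in Control(D). In cohort M it was 2.69% (SD 4.31) in MMSET-Ikk2ca, 6.78% (SD 3.56) in Ikk2ca(M) and 5.26% (SD 7.18) in MMSET, against 0% in Control(M). These shares varied widely between libraries and were not tested.

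Hmox1, heme oxygenase 1, which breaks heme into biliverdin, iron and carbon monoxide, was called lower in Ccnd1-Ikk2ca and in MMSET. In cohort D it had 3.18, 4.87 and 9.89 CPM (lowest, median, highest) in Ccnd1-Ikk2ca, 3.84, 5.46, 8.52 and 6.48 CPM in Ikk2ca(D), 15.8, 10.6, 15.5 and 39.7 CPM in Ccnd1, and 30.6, 16.3, 24.8 and 13.5 CPM in Control(D). In cohort M it had 4.31, 8.95 and 13.6 CPM in MMSET-Ikk2ca, 6.68, 3.10, 6.23 and 4.59 CPM in Ikk2ca(M), 6.36, 3.20, 4.99 and 3.74 CPM in MMSET, and 7.44, 36.6, 13.4 and 22.5 CPM in Control(M). All libraries of Ccnd1-Ikk2ca, Ikk2ca(D), Ikk2ca(M) and MMSET lay below their controls, and Ccnd1 and MMSET-Ikk2ca overlapped theirs.

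Hmox1 fell by 1.99 on the log2 scale in Ccnd1-Ikk2ca (SE 0.363, edgeR adjusted p = 0.00194), a call kept under all alternatives and leave-outs. It fell by 2.13 in MMSET (SE 0.458, adjusted p = 0.0335), a call lost, among the alternatives without a replicate block, with limma voom (adjusted p = 0.269), with Xist as a covariate (adjusted p = 0.0814) and in 5 of 18 leave-outs. Without MMSET replicate 1 it was -2.34 (adjusted p = 0.0297). The log2 differences in Ikk2ca(D) (-1.81 ± 0.413, adjusted p = 0.0587), Ikk2ca(M) (-1.96 ± 0.455, adjusted p = 0.0521) and MMSET-Ikk2ca (-1.23 ± 0.395, adjusted p = 0.0678) were not called by edgeR but were by DESeq2.

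Macrophages that recycle heme express Hmox1 strongly, so the levels of their markers are given beside it. The summed level of 14 monocyte and macrophage markers had a median of 39.3 CPM in Ccnd1-Ikk2ca (29.7 to 127) and 90.1 CPM in Ikk2ca(D) (67.1 to 306), against 124 CPM in Control(D) (106 to 178). In Ccnd1 the sum had a median of 182 CPM (173 to 322), where the log2 difference of Hmox1 was -0.06 ± 0.4. In cohort M the median sum was 57.8 CPM in MMSET-Ikk2ca (45.5 to 71.5), 61.9 CPM in Ikk2ca(M) (35.9 to 322) and 104 CPM in MMSET (71.7 to 868), against 121 CPM in Control(M) (96.3 to 150.3). Of the 14 markers, 8 exceeded 1 CPM in some Ccnd1-Ikk2ca library and 11 in some Control(D) library, and in cohort M 11 did in MMSET-Ikk2ca, 10 in MMSET and 11 in Control(M). Marco was at 0 in every group but Control(D), and Mertk was at 0 in Ikk2ca(D), MMSET and Control(M). Single markers did not all go the same way. Lyz2, which neutrophils share, made up most of the sum in Control(D), with a mean of 11.2 CPM in Ccnd1-Ikk2ca against 84.7 CPM there, and of 1.99 CPM in MMSET-Ikk2ca against 82.6 CPM in Control(M). Cd68 averaged 34.3 CPM in Ccnd1-Ikk2ca against 27.5 CPM in Control(D), C1qb 4.51 CPM against 4.61 CPM, and the F4/80 gene Adgre1 0.00211 CPM against 3.43 CPM. In cohort M, C1qb averaged 19.4 CPM in MMSET-Ikk2ca and 26.9 CPM in MMSET, against 3.42 CPM in Control(M). The part of these cells in the Hmox1 result was not tested.

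**Figure D3:**
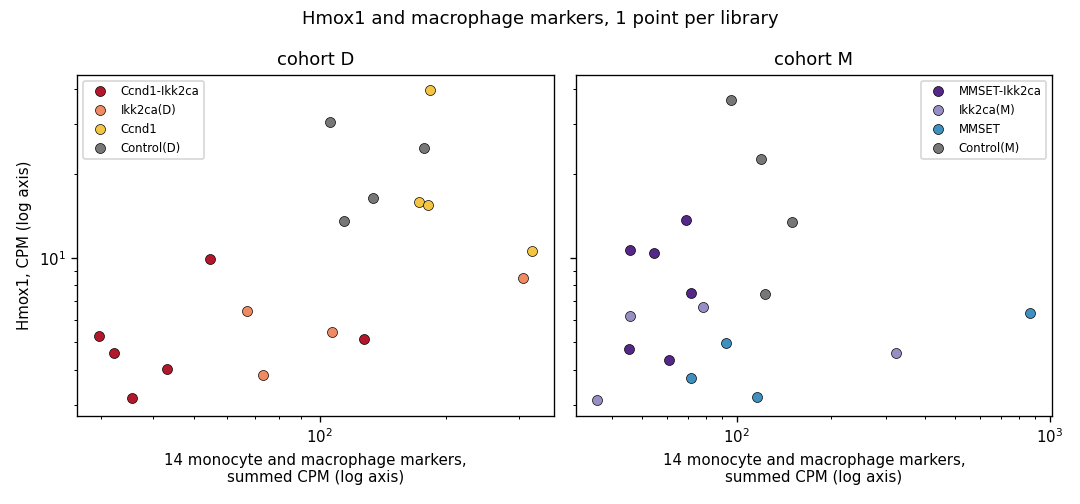
Hmox1 (CPM, log axis) against the summed CPM of 14 monocyte and macrophage markers (log axis), 1 point per library, cohort D on the left and cohort M on the right. Of the Ccnd1-Ikk2ca libraries, 5 have marker sums of 29.7 to 54.6 CPM and replicate 1 has 127 CPM, inside the Control(D) range, and MMSET replicate 1, at 868 CPM of marker sum, has 6.36 CPM of Hmox1.

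**Figure D4:**
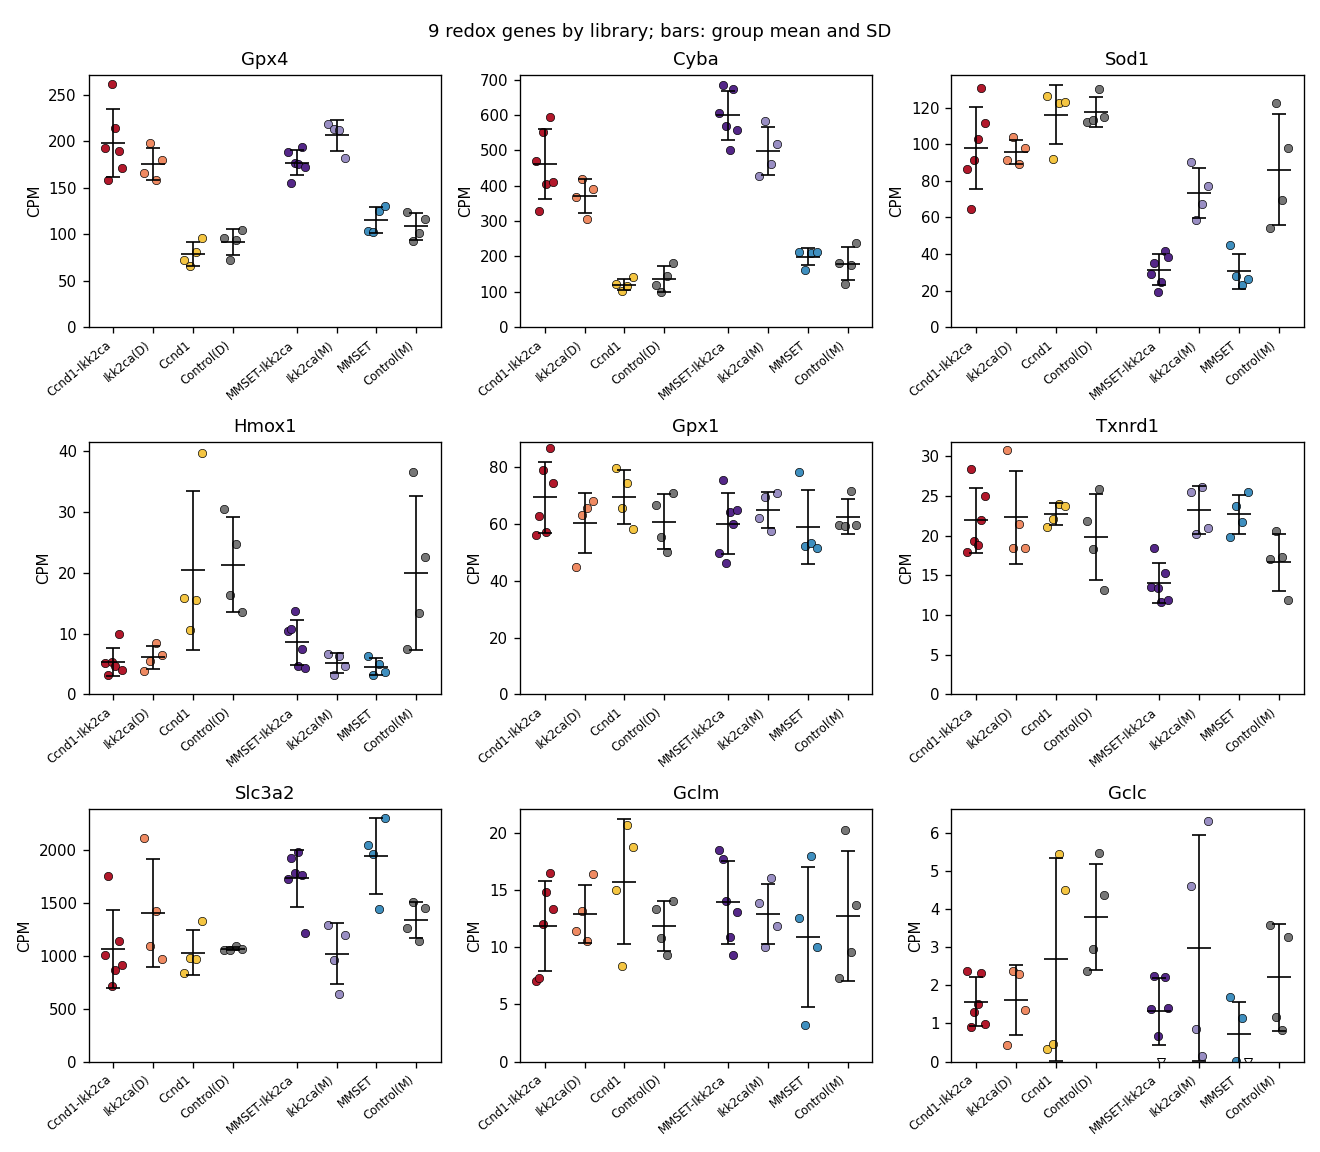
CPM of the other 9 genes in each library, 1 point per library, with bars at the group mean and SD and open triangles for 0 reads; each panel has its own axis from 0. Gpx4 and Cyba separate the 4 groups with Ikk2ca from the other 4, Sod1 separates the 2 groups with MMSET from the rest of cohort M, and Gpx1 shows no separation.

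The groups with both transgenes were also set against those with 1. Against Ccnd1, Ccnd1-Ikk2ca had 4 genes called, where 6.2% of 15323 genes were. Slc7a11 rose by 7.30 ± 1.80, Gpx4 by 1.3 ± 0.156 and Cyba by 1.93 ± 0.192, and Hmox1 fell by 1.94 (SE 0.363), all on the log2 scale, with edgeR adjusted p of 0.0198, 6.41e-05, 1.31e-05 and 0.00347. The Slc7a11 call was lost without Ccnd1 replicate 1, 2 or 3. Against Ikk2ca(D), 0 of the 10 genes were called by edgeR, limma voom or DESeq2, where 0.424% of genes were by edgeR, and 0 had an unadjusted p under 0.05. The same held for the interaction of Ccnd1 and Ikk2ca, where 0.0261% of genes were called.

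Against MMSET, MMSET-Ikk2ca had 3 genes called, where 1.58% of 15416 genes were: Gpx4 rose by 0.62 ± 0.119 (edgeR adjusted p = 0.0111), Cyba rose by 1.59 ± 0.166 (adjusted p = 0.000105) and Txnrd1 fell as given above. Against Ikk2ca(M) it had 4 called, where 0.96% of genes were: Slc7a11 and Slc3a2 were higher, Txnrd1 was lower, and Sod1 fell by 1.23 (SE 0.243, adjusted p = 0.016). That Sod1 call was lost without Ikk2ca(M) replicate 1 or 4.

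Of 215 other genes of redox metabolism, grouped in 12 lists, 182 were tested in cohort D and 181 in cohort M. In Ccnd1-Ikk2ca against Control(D), 13 rose and 10 fell, 12.6% of those tested beside 11.1% of all genes, with a median log2 fold change of 0.15. In MMSET-Ikk2ca against Control(M), 14 rose and 4 fell, 9.94% beside 6.91% of all genes, with a median of 0.08. In the groups with 1 transgene, edgeR called 1 list gene in MMSET (Akr1b3) and 1 in Ikk2ca(M) (Mthfd2), 0.55% of those tested beside 0.649% of all genes. Limma voom called 0 and 2 list genes there, beside 70 and 222 over all genes. DESeq2 called 10 and 6, beside 745 and 652 over all genes. In Ikk2ca(D) and in Ccnd1 edgeR called 0 list genes, where 0.437% and 0.00653% of all genes were. An unadjusted p under 0.05 was reached by 22 and 9 list genes, counts given without their share over all genes. Limma voom called 0 list genes in each, beside 89 and 0 over all genes. DESeq2 called 5 and 0, beside 687 and 142 over all genes. The called genes of both combined groups overlapped in 8, all with the same direction, which is 34.8% of those called in cohort D and 44.4% of those called in cohort M. Over all genes, 470 were called in both, 27.5% of the 1708 in cohort D and 44.1% of the 1065 in cohort M, with 468 in the same direction, so the share in the lists is near that of all genes.

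The shared genes were Slc7a8, Slc38a1, Hagh, Gsr, Sesn2, Akr1b3, Idh2 and Selenom. Of these, only Slc7a8 kept its call in both groups under every alternative and leave-out. Slc38a1 kept it only in MMSET-Ikk2ca, and Hagh, Sesn2 and Akr1b3 only in Ccnd1-Ikk2ca. Gsr, Idh2 and Selenom kept it in neither. Slc7a8, a neutral amino acid transporter that also pairs with Slc3a2, averaged 52.9 ± 30.9 CPM in Ccnd1-Ikk2ca against 6.83 ± 1.68 CPM in Control(D) (log2 fold change 2.95 ± 0.554, edgeR adjusted p = 0.00308), and 53.2 ± 22.5 CPM in MMSET-Ikk2ca against 11.5 ± 5.19 CPM in Control(M) (2.2 ± 0.457, adjusted p = 0.00757). Slc38a1, a glutamine transporter, averaged 2.43 ± 2.91 CPM in Ccnd1-Ikk2ca against 32.7 ± 5.17 CPM in Control(D), and 0.0909 ± 0.203 CPM in MMSET-Ikk2ca, 35 reads in all, against 19.1 ± 8.92 CPM in Control(M). Gsr, glutathione reductase, which returns oxidised glutathione to its reduced form, averaged 4.41 ± 3.35 CPM in Ccnd1-Ikk2ca against 16.6 ± 4.80 CPM in Control(D) (-1.91 ± 0.522, adjusted p = 0.0251), and 3.17 ± 2.49 CPM in MMSET-Ikk2ca against 13.9 ± 1.86 CPM in Control(M) (-2.14 ± 0.590, adjusted p = 0.0354). In each of these 6 pairs of groups no libraries overlapped.

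Among the other shared genes, Hagh, which frees glutathione in the glyoxalase system, rose by 1.3 in Ccnd1-Ikk2ca and 0.62 in MMSET-Ikk2ca on the log2 scale. Sesn2, a stress-responsive sestrin, rose by 1.08 and 1.49, Akr1b3, an aldose reductase, by 1.35 and 1.34, Idh2, a mitochondrial NADPH source, by 1.05 and 0.71, and Selenom, a selenoprotein of the endoplasmic reticulum, by 0.96 and 1.12, in the same order of groups. Their edgeR adjusted p lay between 0.00115 and 0.0415, and only Sesn2 and Akr1b3 in MMSET-Ikk2ca overlapped the control.

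In Ccnd1-Ikk2ca, 4 of 10 tested NADPH oxidase genes were called, where 11.1% of all genes were. Nox1, a catalytic subunit that binds Cyba, averaged 32.1 ± 17.6 CPM in Ccnd1-Ikk2ca against 2.57 ± 3.35 CPM in Control(D) (3.64 ± 1.01, edgeR adjusted p = 0.0323), and Cybb, the gp91phox partner of Cyba, 242 ± 53.0 CPM against 155 ± 35.0 CPM (0.65 ± 0.188, adjusted p = 0.0317). Hvcn1, the proton channel that balances oxidase charge, fell by 2.45 (SE 0.452, adjusted p = 0.00297), and Cybc1, a chaperone of Cybb and Cyba, fell by 0.92 (SE 0.157, adjusted p = 0.00125). The calls of Hvcn1 and Cybc1 held under every alternative and leave-out, and those of Nox1 and Cybb did not. In MMSET-Ikk2ca 0 of 10 tested genes of that list were called by edgeR, where 6.91% of all genes were. In the test of the difference between the 2 effects, edgeR called 0 of 185 list genes, where 0.175% of all genes were. There 22 list genes had an unadjusted p under 0.05, a count given without its share over all genes. Limma voom called 0 list genes and DESeq2 4, beside 139 and 561 over all genes. Rpia rose by 2.37 and Nadk by 0.51, while Idh1 fell by 1.43, Cat, catalase, by 1.03, Gstt1 by 2.26, Bach2, a transcriptional repressor, by 4.96, the ferritin light chain Ftl1, which has near-identical pseudogenes, by 0.59 and the glutamine transporter Slc1a5 by 0.61. Pcbp1, an iron chaperone, rose by 0.73 and Cyb5r1 by 0.74. B cells also express Bach2 and Hvcn1, and the summed level of 10 B cell markers was lower too, with a median of 319 CPM in Ccnd1-Ikk2ca (251 to 384) against 997 CPM in Control(D) (853 to 1118); 4 of the 10 were called lower, 0 were called higher, and their part in these results was not tested. Cbs of the transsulfuration pathway had 404 reads in Ccnd1-Ikk2ca against 0 in Control(D).

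In MMSET-Ikk2ca, Ggt7 of the gamma-glutamyltransferase family averaged 15.4 ± 6.10 CPM against 0.813 ± 0.761 CPM in Control(M) (4.23 ± 0.761, edgeR adjusted p = 0.00205). Mthfd2, a mitochondrial folate enzyme, rose by 1.39, Gstk1 by 3.07, Asns by 0.78 and Prdx4, a peroxiredoxin of the endoplasmic reticulum, by 0.67. Selenow rose by 0.66, Txn1, thioredoxin, by 0.48 and Selenos by 0.47. Gpx3, the secreted glutathione peroxidase, averaged 0.287 ± 0.323 CPM against 9.86 ± 3.71 CPM in Control(M) (-5.10 ± 1.40, adjusted p = 0.0345), and Dpp4 had 1 read in MMSET-Ikk2ca against 1088 in Control(M). Of the called genes of the lists, 8 of 23 in Ccnd1-Ikk2ca and 5 of 18 in MMSET-Ikk2ca kept their call under every alternative and leave-out.

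**Figure D5:**
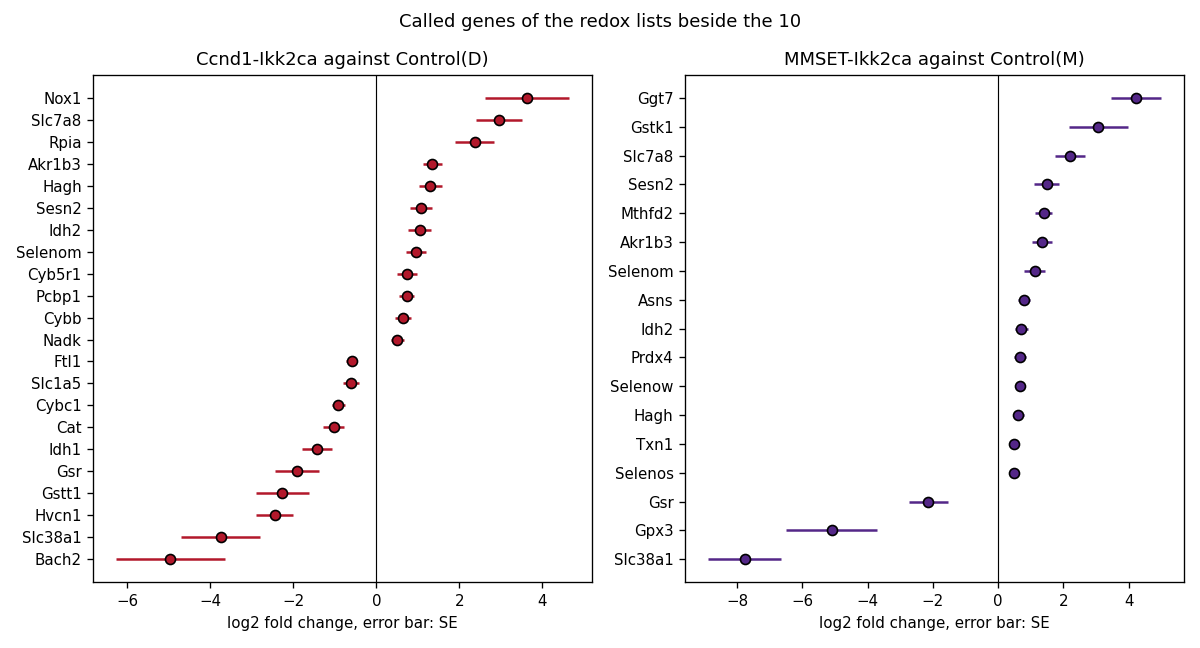
Log2 fold change (x axis, error bars SE) of the genes called in the 12 redox lists beside the 10, Ccnd1-Ikk2ca against Control(D) on the left and MMSET-Ikk2ca against Control(M) on the right; Cbs and Dpp4, with 0 or 1 read in a group, are left out. Slc7a8, Hagh, Sesn2, Akr1b3, Idh2 and Selenom lie right of 0 and Slc38a1 and Gsr left of 0 in both panels.

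For each gene, the closest pattern over the 8 group means was sought among 12987 named genes, as the root mean square difference of centred mean log2 CPM. Nearest to Slc7a11, whose own pattern had a root mean square of 3.30, were Arrdc4 (0.966), Rhox4b (0.976), Car8 (1.0), Tgm2 (1.03), Tmem45a (1.18) and Klhl32 (1.18). Arrdc4 averaged 47.4 CPM in MMSET-Ikk2ca, 19.1 CPM in Ikk2ca(M), 13.0 CPM in MMSET and 0.756 CPM in Control(M), and 9.17 CPM in Ccnd1-Ikk2ca, 4.29 CPM in Ikk2ca(D), 0.597 CPM in Ccnd1 and 0.0754 CPM in Control(D). Rhox4b belongs to a family of near-identical copies, so its reads are uncertain. The nearest gene was Anapc4 for Slc3a2 (0.119), Fam129a for Gclc (0.343), Timm44 for Gclm (0.0663), Uqcrc1 for Gpx1 (0.0391) and Cuta for Gpx4 (0.125). It was Ints6 for Hmox1 (0.275), Cd69 for Sod1 (0.197), Rplp0 for Txnrd1 (0.0649) and Hexim2 for Cyba (0.247). The genes' own root mean squares were 0.0904 for Gpx1, 0.192 for Gclm, 0.250 for Txnrd1, 0.344 for Slc3a2 and 0.507 for Gpx4. They were 0.752 for Sod1, 0.855 for Cyba, 0.871 for Hmox1 and 1.07 for Gclc. The smallest differences thus belong to the flattest genes, with little pattern to match. None of the 10 genes was the nearest of another.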

How the data were processed

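RNA from 36 bulk libraries of 2000 sorted plasma cells each was analysed. The deposited files give, per the file headers, estimated counts and TPM per transcript, and the submitters' processing notes name bcl2fastq 2.20.0.422, Salmon 1.3.0, DESeq2 1.32.0 and GRCm38. Estimated counts of 139960 of 140825 transcripts (865 without a gene, 0.0636% to 0.134% of reads) were summed per gene and rounded; deposited TPM were summed for levels between genes. Groups came from the labels.

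The main test was the quasi-likelihood F test of edgeR 4.0.16 with robust dispersions, after filterByExpr and TMM, with Benjamini-Hochberg adjustment and a threshold of 0.05. It was fitted within cohort D (15323 genes), within cohort M (15416) and over all 36 libraries (17116) for comparisons across cohorts. SE is the log2 fold change over the root of F. CPM use 1 scaling of 36 libraries, and log2 CPM a prior count of 2. Alternatives were DESeq2 size factors in edgeR, limma 3.58.1 voom with quality weights, DESeq2 1.42.0, a replicate block, no filter on low counts, leaving out immunoglobulin genes, a covariate for Xist over 10 CPM, 1 fit of all libraries and leaving out each library. Scripts ran in R 4.3.3 and Python 3.11.15 (matplotlib 3.10.9, scipy 1.17.1, pandas 2.3.3, numpy 2.4.6), and the tests were checked on simulated data. Promoters are RefSeq's, on GRCm38.p6.

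The 10 genes, the lists and the markers were chosen with earlier results of these data known. Named genes were the 10 in every comparison, up to 4 called genes with the smallest p per list and comparison with a control, and the 6 genes most like Slc7a11 and the 1 most like each other gene. Library totals were 54.1 to 97.6 M reads, so low genes such as Slc7a11 and Gclc are the least precise; intervals cover counting error only.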

Additional observations from a re-analysis of the deposited data

Results flagged for a closer look

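Of 80 groups of 4 to 6 libraries, 11 held a library far from the others by Dixon's test, a rule that chance meets in about 1 in 20 groups. The highest library stood apart for Slc7a11 in Control(D) (0.338 CPM, replicate 3) and Control(M) (0.0486 CPM), Slc3a2 in Control(D) (1089 CPM), Gpx1 in MMSET (78.2 CPM) and Control(M) (71.7 CPM), Hmox1 in Ccnd1-Ikk2ca (9.89 CPM) and Sod1 in Control(D) (130.0 CPM). The lowest library stood apart for Slc3a2 in MMSET-Ikk2ca (1214 CPM), Gpx4 in Ikk2ca(M) (182 CPM), Sod1 in Ccnd1 (92.0 CPM) and Cyba in MMSET (163 CPM).

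For Slc7a11, the edgeR test of whether the effect of Ikk2ca differs between plasma cells with and without MMSET gave an interaction of -5.60 on the log2 scale (adjusted p = 0.00777). It was not called with limma voom (adjusted p = 0.38), in the fit of 36 libraries (0.107) or with the replicate block (0.0797). The size of the interaction rests on 6 Slc7a11 reads in Control(M). On the linear scale the difference ran the other way, with means of 24 CPM in MMSET-Ikk2ca against 9.72 CPM in MMSET, and of 3.10 CPM in Ikk2ca(M) against 0.0240 CPM in Control(M).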

How the results depend on the processing

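No called result for the 10 genes changed direction. Over the alternatives other than leaving out each library, 1107 gene results stayed on their side of the threshold, 27 lost a call and 16 gained a call. Calls lost or gained when a library was left out are not in these counts. The number of the 10 genes called changed as follows. For Ikk2ca(D) against Control(D) it was 0 with the Xist covariate, for MMSET against Control(M) 0 with limma voom, and for the difference of the combined effects 2 with DESeq2. For MMSET-Ikk2ca against Ikk2ca(M) it was 2 with the replicate block, with the Xist covariate and in the fit of 36 libraries. For the interaction in cohort M it was 0 with limma voom, the block and the fit of 36, and 3 with DESeq2. For Ccnd1-Ikk2ca against MMSET-Ikk2ca it was 5 with limma voom. The cause was not tested.

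Leaving out 1 library gave 1 to 3 called genes for Ikk2ca(D), 3 to 4 for Ccnd1-Ikk2ca, 1 to 3 for MMSET, 3 to 4 for Ikk2ca(M) and 4 to 5 for MMSET-Ikk2ca against their controls. It gave 3 to 4 for Ccnd1-Ikk2ca against Ccnd1, 2 to 3 for MMSET-Ikk2ca against MMSET, 1 to 3 for it against Ikk2ca(M), 1 for the interaction in cohort M, 1 to 3 for Ccnd1-Ikk2ca against MMSET-Ikk2ca and 0 to 1 for the difference of effects. The remaining comparisons stayed at 0. Without Control(D) replicate 3, Slc7a11 log2 differences were 9.46 for Ikk2ca(D) (edgeR adjusted p = 0.0746) and 3.68 for Ccnd1, the difference of effects was 1.11 in place of -4.39, and Control(D) minus Control(M) was -3.79.

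Whether replicate numbers pair the libraries was not settled. Same-numbered libraries of different groups correlated at -0.0421 to 0.106. Their median was 0.0115 in cohort D and 0.0299 in cohort M, against -0.00385 and -0.00527 for libraries with different numbers. In each cohort 7 of 16 libraries correlated best with their own number, and the share that chance would give was not computed. With the replicate block, 1 of the 10 genes was called for MMSET-Ikk2ca against MMSET, and the block took the Slc7a11 call from Ccnd1-Ikk2ca against Control(D) (edgeR adjusted p = 0.0644) and against Ccnd1 (0.0618), from MMSET-Ikk2ca against Ikk2ca(M) (0.0543) and from the interaction in cohort M (0.0797). It also took the calls of Hmox1 in MMSET against Control(M) (0.098), of Gpx4 in MMSET-Ikk2ca against MMSET (0.0556), and of Txnrd1 in MMSET-Ikk2ca against MMSET (0.153) and against Ikk2ca(M) (0.14), and changed no other call of the 10 genes. It could not be estimated for Ccnd1-Ikk2ca against MMSET-Ikk2ca or between the controls.

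The number of all genes called by edgeR differed by more than 1.5 times from other settings in every comparison. For Ccnd1 against Control(D) it was 1, against 0 with limma voom, 142 with DESeq2 and 2 with the block. In Ikk2ca(D) against Control(D) it was 67, against 687 with DESeq2, 4 with the Xist covariate and 115 with the fit of 36. Over Ccnd1-Ikk2ca against Control(D) it was 1708, against 2806 with DESeq2 and 1017 with the block. For Ccnd1-Ikk2ca against Ccnd1 it was 950, against 1538 with limma voom, 2015 with DESeq2 and 551 with the block. In Ccnd1-Ikk2ca against Ikk2ca(D) it was 65, against 106 with limma voom, 485 with DESeq2, 37 with the block and 9 with the fit of 36. Over the interaction of Ccnd1 and Ikk2ca in cohort D it was 4, against 1 with limma voom, 153 with DESeq2, 0 with the Xist covariate and 0 with the fit of 36. For MMSET against Control(M) it was 100, against 745 with DESeq2 and 57 with the fit of 36. In Ikk2ca(M) against Control(M) it was 100, against 222 with limma voom and 652 with DESeq2. Over MMSET-Ikk2ca against Control(M) it was 1065, against 1678 with limma voom, 2196 with DESeq2 and 694 with the block. For MMSET-Ikk2ca against MMSET it was 244, against 922 with DESeq2, 111 with the block, 138 with the Xist covariate and 379 with the fit of 36. In MMSET-Ikk2ca against Ikk2ca(M) it was 148, against 531 with limma voom, 807 with DESeq2, 74 with the block, 72 with the Xist covariate and 229 with the fit of 36. Over the interaction of MMSET and Ikk2ca in cohort M it was 15, against 33 with limma voom, 443 with DESeq2, 24 with immunoglobulin genes left out, 3 with the block, 5 with the Xist covariate and 6 with the fit of 36. For Ccnd1-Ikk2ca against MMSET-Ikk2ca it was 427, against 884 with limma voom, 956 with DESeq2 and 281 with no low-count filter. In Control(D) against Control(M) it was 7, against 459 with DESeq2, 4 with no low-count filter and 4 with the Xist covariate. Over the difference of effects it was 30, against 139 with limma voom and 561 with DESeq2.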
